A study of Mus musculus with 48 samples.

Results

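The transcripts of the nuclear-encoded subunits of respiratory complex I were followed in subcutaneous white adipose tissue (sWAT) of mice on 2 feeding regimens. Members were chosen by name alone, as the protein-coding genes of the deposited count table called Nduf followed by a, b, c, s or v and a number, and 37 of the 54532 listed genes met this rule. All 37 passed the filter on low counts and were among the 19977 genes tested. Of these, 35 encode complex I subunits. The other 2, Ndufa4 and Ndufa4l2, carry the name only: the product of Ndufa4 is now assigned to complex IV, and Ndufa4l2 is its hypoxia-inducible paralogue.

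All samples were inguinal white adipose tissue of C57BL/6 mice aged 8 months. Ad-lib animals had food at all times, and TAN (twice-a-night) animals were fed in 2 windows of the dark phase. Each of the 12 groups of diet and time held 4 libraries of separate animals, named by their labels for 8 a.m., 12 p.m., 4 p.m., 8 p.m., 12 a.m. and 4 a.m., which makes 48 libraries. The question was how TAN feeding and the time of day move this gene family, as a group and subunit by subunit.

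Complex I (NADH:ubiquinone oxidoreductase) is the largest enzyme of the mitochondrial respiratory chain. Its peripheral arm in the matrix takes electrons from NADH and passes them along iron-sulfur clusters to ubiquinone, and its membrane arm pumps protons. A set of core subunits carries out catalysis, and the accessory subunits around them are needed for assembly and stability. The core subunits of the membrane arm are encoded by the mitochondrial genome and all others by nuclear genes, so both genomes have to supply their parts. In white adipocytes the respiratory chain supports lipid synthesis and oxidation, and its content rises in thermogenic (beige) adipocytes.

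The promoters of 5 of the members called most clearly are shown, each picked with a motif of a factor known for respiratory genes. They run from 250 bases before to 50 after the RefSeq start (GRCm38.p6), 5′ to 3′, and capitals mark every match on either strand to the motifs used for marking. These are the relaxed NRF1 motif (GCGCA, any base, GCGC), the YY1 motif AAGATGGC, the CRE motif TGACGTCA, the ETS motif CCGGAAG and the ERR half-site AAGGTCA.
Ndufa8 (chr2:36049289-36049588, minus strand): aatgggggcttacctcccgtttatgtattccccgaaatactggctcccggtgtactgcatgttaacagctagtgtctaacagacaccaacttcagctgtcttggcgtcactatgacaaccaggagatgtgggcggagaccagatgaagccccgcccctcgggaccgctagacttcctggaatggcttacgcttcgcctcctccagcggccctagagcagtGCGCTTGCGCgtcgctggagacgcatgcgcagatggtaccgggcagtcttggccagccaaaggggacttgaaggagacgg
Ndufa10 (chr1:92473709-92474008, minus strand): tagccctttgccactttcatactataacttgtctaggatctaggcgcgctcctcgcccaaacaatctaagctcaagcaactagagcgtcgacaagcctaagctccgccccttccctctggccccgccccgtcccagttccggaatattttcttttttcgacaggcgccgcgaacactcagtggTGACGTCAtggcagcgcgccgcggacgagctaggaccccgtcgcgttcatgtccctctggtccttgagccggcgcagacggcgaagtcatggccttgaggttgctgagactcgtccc
Ndufa6 (chr15:82354242-82354541, minus strand): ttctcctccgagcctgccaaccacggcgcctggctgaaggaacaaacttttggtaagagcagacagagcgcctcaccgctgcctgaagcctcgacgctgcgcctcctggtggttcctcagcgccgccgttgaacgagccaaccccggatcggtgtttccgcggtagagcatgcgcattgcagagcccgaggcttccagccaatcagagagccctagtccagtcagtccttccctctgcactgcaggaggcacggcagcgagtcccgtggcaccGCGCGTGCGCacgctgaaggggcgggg
Ndufs4 (chr13:114388045-114388344, minus strand): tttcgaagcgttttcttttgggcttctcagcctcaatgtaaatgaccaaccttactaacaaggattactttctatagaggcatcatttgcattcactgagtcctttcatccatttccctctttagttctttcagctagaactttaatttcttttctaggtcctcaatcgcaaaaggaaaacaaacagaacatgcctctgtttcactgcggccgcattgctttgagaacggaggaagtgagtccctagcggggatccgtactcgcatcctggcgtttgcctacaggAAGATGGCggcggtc
Ndufs7 (chr10:80249199-80249498, plus strand): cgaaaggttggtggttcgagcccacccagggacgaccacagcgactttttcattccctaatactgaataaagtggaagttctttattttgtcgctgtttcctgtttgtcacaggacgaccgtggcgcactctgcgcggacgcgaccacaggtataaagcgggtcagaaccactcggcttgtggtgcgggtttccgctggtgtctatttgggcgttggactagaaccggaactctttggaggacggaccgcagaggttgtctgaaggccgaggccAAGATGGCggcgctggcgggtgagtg

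RefSeq promoters were matched for 32 of the 37 members. Genes were counted where any of their promoters held a match, and Ndufa5 and Ndufa7 had more than 1 promoter. The relaxed NRF1 motif stood in 7 of these 32 members (21.9%) and in 5.19% of all 27025 genes searched. The strict NRF1 motif, the form with T at the free base, stood in 1 member (3.12% against 1.07%). The YY1 motif stood in 7 of 32 (21.9% against 3.19%), in each case between 23 and 39 bases after the start. Ndufs4 and Ndufs7 share it at positions 36 and 25. CRE stood in 3 (9.38% against 2.03%), ETS in 4 (12.5% against 9.93%) and the ERR half-site in 3 (9.38% against 5.38%). The full ERR motif TCAAGGTCA, which contains the half-site, stood in 0 of 32 (0.466% of all genes). The Sp1 motif GGGCGG (43.8% against 38.2%), the CCAAT box (31.2% against 41.1%), the E-box CACGTG (6.25% against 8.09%) and the TATA box TATAAA (12.5% against 15.7%) complete the search. Ndufa12, Ndufa13, Ndufv1 and Ndufv2 are among the members whose promoters held no match to the motifs used for marking. The promoters shown were picked among those with a match and do not stand for all members. A match describes letters in a window and is not evidence of binding. Whether the motifs bear on the expression of the members was not tested.

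Total counts ranged from 15636378 to 29913310 per library. As to the labels, in the tables that accompany the study, each of the 48 libraries is listed under a time 12 h away from its label here (979 genes, lowest correlation with the matching library 0.999994, highest with any other 0.948). The times used below are those of the sample labels. Since a shift of 12 h would affect both diets alike, the groups compared would hold the same animals. Every clock time and fitted peak hour below would however move by 12 h, which exchanges day and night. The paper describes enrichment of electron transport chain genes in TAN sWAT in the late postprandial period of the night. By the labels, the members differed most between the diets in the afternoon, which such a shift would place in the night. Which times are right was not tested. Lymphocyte markers split the libraries: the mean log2 CPM of 12 markers was below 2 in 4 ad-lib and 6 TAN libraries and at least 4.68 in the other 38. The series text describes a stromal vascular fraction, whereas the adipocyte markers Adipoq (551 to 7053 CPM), Plin1 (176 to 2231 CPM) and Fabp4 (2868 to 32970.4 CPM) were detected in all 48 libraries.

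Per kilobase of gene length, the highest mean level among the members was that of Ndufa4 at 249.9 ± 100.6 RPKM (SD over 48 libraries), followed by Ndufa2 at 183 ± 67.2 RPKM and Ndufb11 at 177 ± 55.9 RPKM. These 3 neighbours in the order differed by less than their spread. The lowest were Ndufa4l2 at 8.90 ± 4.32 RPKM and Ndufb2 at 2.72 ± 0.873 RPKM, and the next lowest, Ndufb7, stood at 23.8 ± 7.53 RPKM. The deposited gene model of Ndufb2 is 5628 bases long. Ndufb2 overlaps Braf on the other strand, as Ndufs1 overlaps Eef1b2, Ndufs6 overlaps Mrpl36 and Ndufa4l2 overlaps Shmt2. Their median counts were 297 for Ndufb2 and 1082 for Braf, 4296 for Ndufs1 and 8525 for Eef1b2, 948.5 for Ndufs6 and 831 for Mrpl36, and 188 for Ndufa4l2 and 558 for Shmt2. The use of strand in counting is not stated, so reads of such partners cannot be told apart, and 19 of the 37 members overlap another annotated gene.

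The diets stood furthest apart at 4 p.m. Averaged over the 35 subunit genes, expression in ad-lib libraries was 6.22, 6.21, 5.81 and 5.86 on the log2 CPM scale, and in TAN libraries it was 7.41, 6.84, 7.41 and 7.02. Every TAN library lay above every ad-lib library. At this time 35 of 37 members were called higher and 0 lower in TAN sWAT, at an adjusted p under 0.05 (edgeR's quasi-likelihood test, with p-values adjusted over all tested genes after Benjamini and Hochberg, as for every adjusted p below). Of all 19977 genes, 6.54% were called higher at 4 p.m. and 15.3% in either direction. The median log2 fold change of the members was 1.15 (range 0.73 to 2.01), and that of all genes tested was -0.09. A log2 fold change above 1 was reached by 28 called members, as by 2.93% of all genes. For all 37 members the 4 TAN libraries lay above the 4 ad-lib libraries without overlap, which held for 12.8% of all genes.

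**Figure D1:**
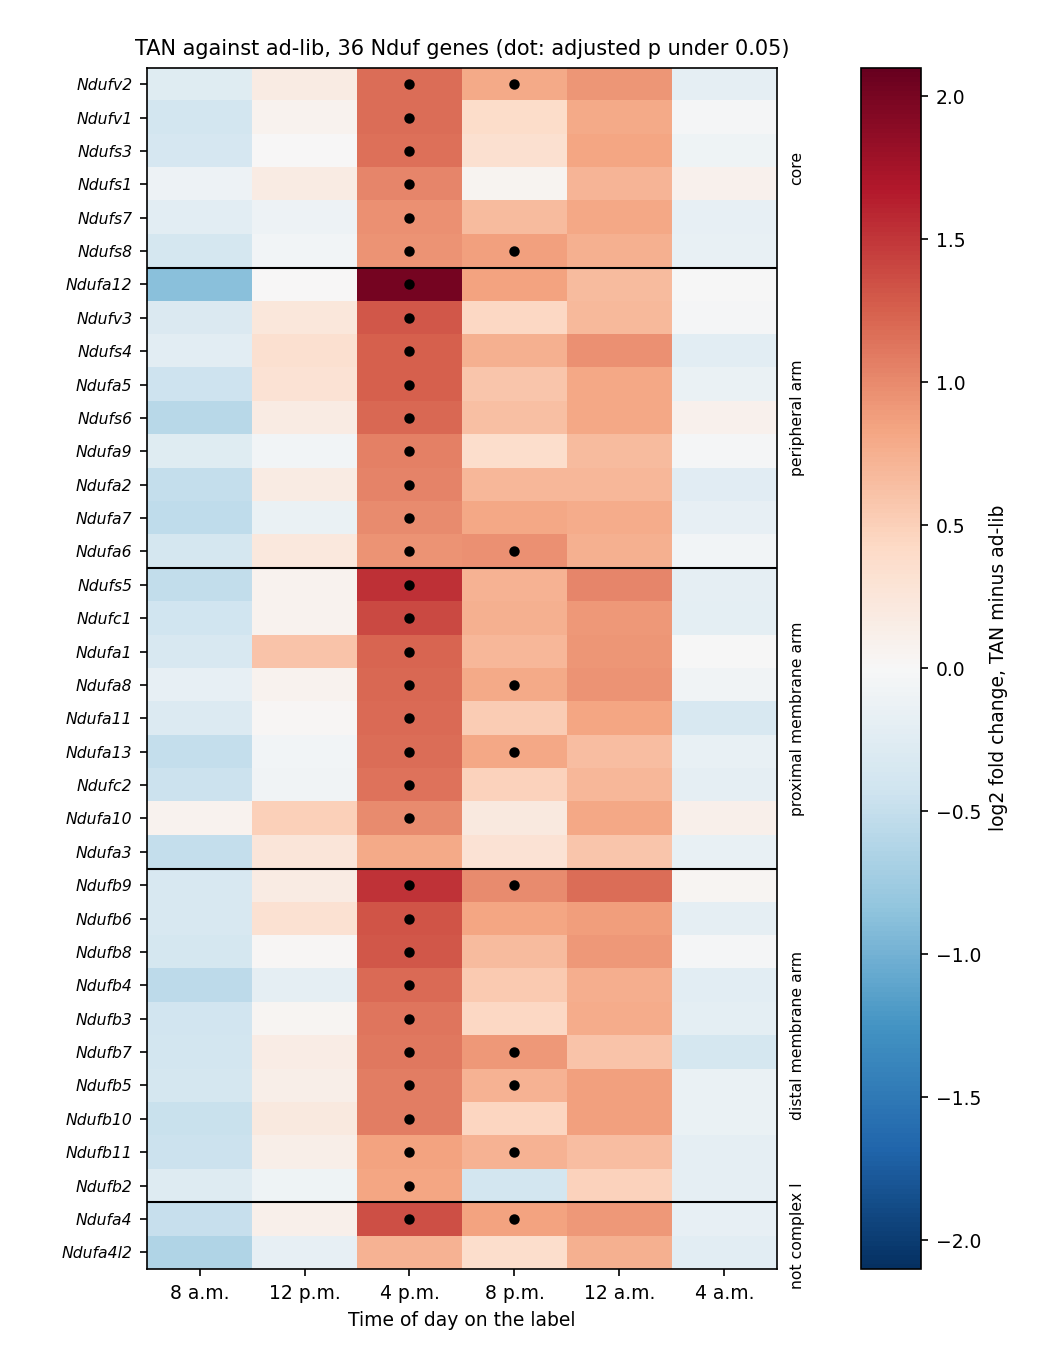
Heat map of the log2 fold change (TAN minus ad-lib, colour scale from -2.1 to 2.1) of 36 of the 37 Nduf genes (rows, ordered by role) at 6 times of day (columns), with a black dot where the adjusted p was under 0.05. The column of 4 p.m. has 34 dots and that of 8 p.m. has 10, and no other column has any.

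Single libraries and the cell mixture bear on this count. Leaving out ad-lib replicate 3 gave 22 calls at this time, and leaving out TAN replicate 1 gave 23. At 4 p.m. the lymphocyte markers were lower in TAN libraries, with a sum of 36.5 to 455 CPM against 1669.7 to 2935 CPM in ad-lib libraries, and 5 of the 12 markers were called lower. Adipocyte markers (8 genes) summed to 22968 to 44957 CPM in TAN and 10174 to 15784 CPM in ad-lib libraries, and 1 of 8 was called higher. Neither pair of ranges overlaps. Macrophage markers summed to 303 to 1348 CPM in TAN and 1174 to 1882 CPM in ad-lib libraries, with 1 of 5 called lower. Of the other lists, 0 of 10 skeletal muscle, 0 of 4 stromal and 0 of 4 erythrocyte markers were called at 4 p.m., and 1 of 3 epithelial markers was called lower, with Krt14 at 0 in 47 of the 48 libraries. With the lymphocyte markers as a covariate 0 members and 0 genes in all were called at 4 p.m. The members' median was then 0.79 and that of all genes -0.09. With the adipocyte markers as a covariate 15 members and 201 of the 19977 genes were called, and the members' median was 0.85. Within these 8 libraries diet and cell mixture cannot be told apart, nor, in bulk tissue, fewer cells of a type from less RNA per cell.

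The 7 nuclear core subunits, which hold the flavin and the iron-sulfur clusters, were all called higher at 4 p.m., with a median log2 fold change of 1.05 and a narrow range of 0.94 to 1.18. Ndufv1, the subunit that binds NADH and the flavin, was at 293, 229, 303 and 304 CPM in TAN and 136, 134, 108 and 124 CPM in ad-lib libraries (log2 fold change 1.17, SE 0.27, adjusted p = 0.00933). Ndufv2, its iron-sulfur partner, was at 313, 215, 331 and 242 CPM against 138, 135, 105 and 109 CPM (1.18, SE 0.27, adjusted p = 0.00908). In both genes the lowest TAN library was replicate 2 and still exceeded the highest ad-lib library. Ndufs7, which carries the last cluster before ubiquinone, was at 268, 173, 261 and 179 CPM against 121, 121, 105 and 105 CPM (0.96, SE 0.23, adjusted p = 0.0112). Ndufs8, another cluster subunit, was at 194, 107, 163 and 132 CPM against 86.6, 81.3, 73.3 and 70.9 CPM (0.94, SE 0.23, adjusted p = 0.0112). TAN replicates 1 and 3 were the high ones in both. Of the other core subunits, Ndufs1 had a log2 fold change of 1.02 and Ndufs3 one of 1.15.

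All 9 accessory subunits of the peripheral arm were called higher at 4 p.m. (median log2 fold change 1.21). Ndufa12, which takes the place of the assembly factor Ndufaf2 late in assembly, had the largest fold change of all members. Its level was 54.8, 96.8, 138 and 66.0 CPM in TAN and 24.96, 26.6, 18.2 and 18.5 CPM in ad-lib libraries, a 4.03-fold difference (log2 fold change 2.01, SE 0.43, adjusted p = 0.00771). The TAN libraries were widely spread, and replicate 1 was the lowest of them here although it was the highest for most other members named at this time. Ndufs4, whose loss in mice causes a Leigh-like encephalopathy, was at 221, 109, 175 and 138 CPM against 80.1, 75.4, 56.4 and 57.0 CPM (1.26, SE 0.27, adjusted p = 0.00795). Ndufa6, which anchors an acyl carrier protein, was at 262, 130.4, 192 and 139 CPM against 98.8, 109, 84.6 and 85.8 CPM (0.94, SE 0.24, adjusted p = 0.0135). In both genes TAN replicate 2 was the lowest TAN library and lay above all ad-lib libraries.

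In the proximal membrane arm 8 of 9 accessory subunits were called higher at 4 p.m. (median log2 fold change 1.19). Ndufa8, a twin-cysteine protein on the intermembrane side, had the lowest adjusted p of all members, with 189, 105, 141 and 129 CPM in TAN and 72.6, 66.1, 53.7 and 52.3 CPM in ad-lib libraries (log2 fold change 1.21, SE 0.24, adjusted p = 0.00618). Ndufa10, a subunit with the fold of a nucleoside kinase, was at 205, 198, 205 and 226 CPM against 100.03, 122, 88.1 and 109 CPM (0.99, SE 0.20, adjusted p = 0.00627). The 4 TAN libraries of Ndufa10 lay close together, unlike those of Ndufa8, where replicate 1 stood above the rest. Ndufs5, of the same twin-cysteine family, was at 272, 142, 219 and 165 CPM against 80.3, 88.9, 49.8 and 57.2 CPM (1.53, SE 0.34, adjusted p = 0.00818). Ndufa13, also known as the cell-death regulator GRIM-19, was at 226, 124, 215 and 145 CPM against 84.5, 93.3, 65.3 and 72.9 CPM (1.17, SE 0.26, adjusted p = 0.00823). Ndufa3, a small membrane subunit, missed the threshold at 88.6, 73.5, 128 and 80.9 CPM against 58.7, 62.7, 48.5 and 43.1 CPM (0.80, SE 0.29, adjusted p = 0.0522), although its groups did not overlap either.

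All 10 accessory subunits of the distal membrane arm were called higher at 4 p.m. (median log2 fold change 1.12). Ndufb9, which anchors another acyl carrier protein at this end of the complex, was at 389, 178, 308 and 210.2 CPM in TAN and 100.4, 105, 74.0 and 100.4 CPM in ad-lib libraries (log2 fold change 1.52, SE 0.31, adjusted p = 0.00705). Ndufb7, a twin-cysteine protein, was at 145, 102, 154 and 132 CPM against 70.6, 70.4, 55.9 and 50.3 CPM (1.11, SE 0.23, adjusted p = 0.00705). Ndufb9 was among the most widely spread members in TAN libraries and Ndufb7 among the tighter ones. Ndufb2, the member with the lowest level per kilobase, stood at the threshold with 16.8, 15.5, 23.7 and 18.2 CPM against 14.01, 7.53, 9.70 and 10.5 CPM (0.83, SE 0.30, adjusted p = 0.04999).

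Of the 2 members outside complex I, 1 was called at 4 p.m. Ndufa4 was called higher, with 634, 359, 573 and 413 CPM in TAN and 228, 213, 159 and 176 CPM in ad-lib libraries (log2 fold change 1.35, SE 0.30, adjusted p = 0.00818). Ndufa4l2 was not called, at 12.7, 18.5, 12.1 and 12.3 CPM against 6.86, 11.5, 7.04 and 8.07 CPM (0.73, SE 0.59, adjusted p = 0.412). Its groups did not overlap, but its SE was the largest among the members at this time. Over the 48 libraries its log2 CPM correlated with the mean of the subunits at r = 0.346, against r = 0.983 for Ndufa4. These libraries share scaling and cell mixture, and the correlations are given as a description.

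At 8 p.m. the difference was smaller and fewer members were called. The mean over the 35 subunit genes was 6.01, 6.48, 6.28 and 6.75 log2 CPM in ad-lib and 6.68, 6.57, 7.03 and 7.48 log2 CPM in TAN libraries, so that the groups overlapped. At this time 10 of 37 members were called higher and 0 lower, and 3.76% of all genes were called higher (11.7% in either direction). The members' median log2 fold change was 0.67 (range -0.38 to 0.99) against -0.10 for all genes, none exceeded 1 (1.19% of all genes were called beyond it), and 9 members did not overlap between the diets, as did 4.55% of all genes with TAN above ad-lib. The 10 were Ndufv2 and Ndufs8 of the core, Ndufa6 of the peripheral arm, Ndufa8 and Ndufa13 of the proximal arm, Ndufb5, Ndufb7, Ndufb9 and Ndufb11 of the distal arm, and Ndufa4.

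Ndufa6 had the lowest adjusted p at 8 p.m., with 208, 201, 230.3 and 220.2 CPM in TAN and 87.5, 120.4, 97.7 and 137 CPM in ad-lib libraries (log2 fold change 0.96, SE 0.24, adjusted p = 0.0107). Ndufb7 was at 148, 142, 126 and 173 CPM against 71.5, 86.1, 71.1 and 85.1 CPM (0.91, SE 0.23, adjusted p = 0.0119). Ndufs8 was at 126, 129, 155 and 178 CPM against 69.2, 87.5, 78.1 and 90.1 CPM (0.85, SE 0.23, adjusted p = 0.0151). In these 3 genes all TAN libraries were above all ad-lib libraries. Ndufa4 overlapped slightly, at 355, 288, 557 and 608 CPM against 180.1, 270.5, 221 and 330.4 CPM (0.85, SE 0.29, adjusted p = 0.0498). Ndufa10, so clear at 4 p.m., was at 115, 80.6, 133 and 176 CPM against 90.7, 108, 100.8 and 138 CPM (0.21, SE 0.20, adjusted p = 0.543). Ndufb2 was the sole member with a negative value at this time (-0.38, SE 0.29, adjusted p = 0.428). Ndufa4l2 ranged from 0 counts in TAN replicate 1, which allows up to 3 counts, to 18.8 CPM in TAN replicate 4.

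The calls at 8 p.m. depended on single libraries. They numbered 2 without ad-lib replicate 1, 3 without ad-lib replicate 2, ad-lib replicate 3 or TAN replicate 4, 4 without TAN replicate 3 and 6 without TAN replicate 1. The TAN libraries were unlike each other: their lymphocyte markers had mean log2 CPM values of 7.71, 7.81, 6.28 and 1.70, in the order of their subunit means above, and their adipocyte markers 8.55, 8.09, 10.42 and 11.09. The ad-lib libraries stood at 5.92 to 7.48 for lymphocyte markers. TAN replicate 3 lay within that range, replicates 1 and 2 above it, and these 3 had subunit means of 6.57 to 7.03. Macrophage markers averaged 5.23 to 6.37 log2 CPM in TAN and 6.44 to 6.88 in ad-lib libraries, without overlap. Their sums, the measure used at 4 p.m., did overlap. They were 2196, 2302, 1639 and 393 CPM in TAN replicates 1 to 4 and 996 to 1561 CPM in ad-lib libraries. At 8 p.m. 1 of 5 macrophage markers had a positive log2 fold change, and 1 of 5 macrophage and 1 of 4 stromal markers were called lower. With the adipocyte markers as a covariate 20 members were called at 8 p.m., when calls over all genes went from 2333 to 4587 of 19977. With the lymphocyte markers 11 members and 3912 genes were called. With the TEC share (the percent of counts from genes of the TEC biotype, loci whose transcripts await experiment) 0 members and 64 genes were called and the members' median was -0.17, and a fit of the 8 p.m. libraries alone called 0 members and 55 of 16186 genes, with a members' median of 0.69.

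**Figure D2:**
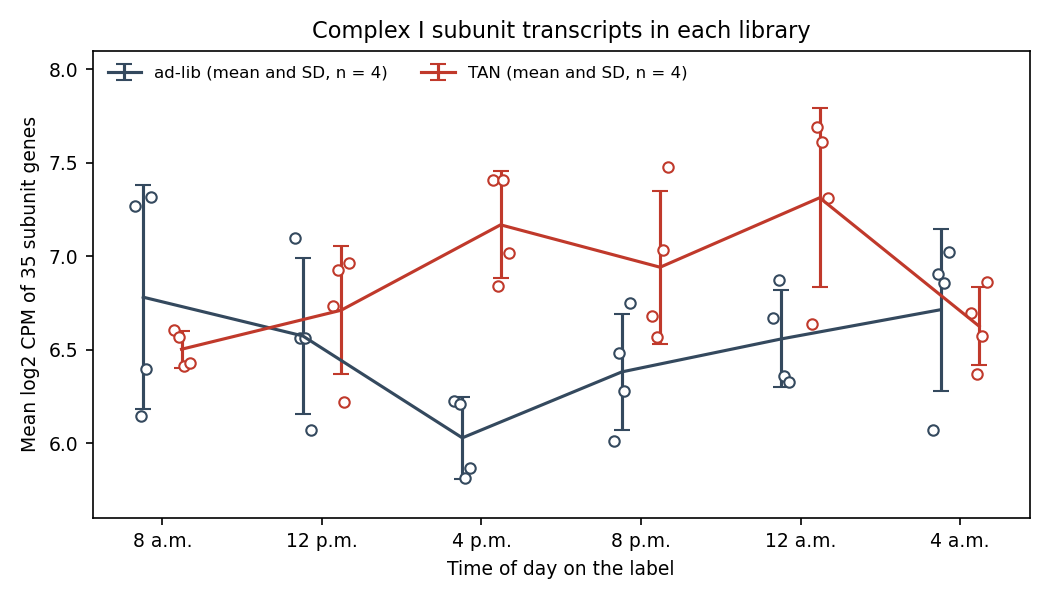
Mean log2 CPM of the 35 complex I subunit genes (vertical axis) in each of the 48 libraries (open circles), by labelled time of day (horizontal axis) and diet, with lines and bars for the mean and SD of 4 libraries. TAN libraries sit between 6.84 and 7.41 at 4 p.m., above the ad-lib libraries at 5.81 to 6.22, while at 8 a.m. the ad-lib libraries span 6.15 to 7.31 around the TAN libraries.

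At 12 a.m. all 37 members had a positive log2 fold change, with a median of 0.80 (range 0.48 to 1.17) against -0.14 for all genes, but 0 were called by edgeR at an adjusted p under 0.05. Of all genes, 0.125% were called higher (0.15% in either direction). At an unadjusted p under 0.05 there were 34 members, all higher, as were 8% of all genes, and DESeq2 called 15 members and 568 of the 19977 genes. Groups did not overlap in 10 members, as in 3.59% of all genes with TAN above ad-lib. TAN replicate 1 stood apart. Its subunit mean was 6.64 log2 CPM, within the ad-lib range of 6.33 to 6.87, and the other 3 TAN libraries had 7.69, 7.61 and 7.31. Its lymphocyte markers averaged 7.10 log2 CPM and theirs 0.295, 5.001 and 0.712, beside 6.46 to 6.91 in the ad-lib libraries. Without TAN replicate 1, 25 members were called. The TAN libraries then left at 12 a.m. all lay below the ad-lib range of these markers. Diet and cell mixture cannot be told apart in that comparison, and the share of all genes called in it is not given here.

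Ndufa10 had the lowest adjusted p at 12 a.m., with 159, 204, 243 and 254 CPM in TAN and 118, 131, 112 and 126 CPM in ad-lib libraries (log2 fold change 0.82, SE 0.20, adjusted p = 0.0724). Ndufa8 was at 106, 174, 189 and 165 CPM against 96.3, 88.4, 74.4 and 71.5 CPM (0.94, SE 0.24, adjusted p = 0.0846). Ndufb9 was at 228, 395, 378 and 283 CPM against 171, 161, 102 and 136 CPM (1.17, SE 0.31, adjusted p = 0.110). In all 3 the first TAN replicate was the lowest and still above the ad-lib libraries.

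At the other 3 times 0 members were called by edgeR or DESeq2. At 8 a.m. 36 of 37 log2 fold changes were negative, with a median of -0.38 and 2 at an unadjusted p under 0.05, against 0.015% of all genes called in either direction and 3.62% lower at that unadjusted p. These 2 were Ndufs6, a zinc-binding subunit (-0.58, adjusted p = 0.730), and Ndufa12 (-0.87, adjusted p = 0.754). Ndufa12 was at 39.3, 34.1, 32.4 and 31.5 CPM in TAN and 87.2, 26.5, 44.9 and 92.9 CPM in ad-lib libraries, so that the ad-lib libraries spanned the TAN libraries. At 12 p.m. the median was 0.10 with 28 positive values, and Ndufa10 alone reached an unadjusted p under 0.05 (0.50, adjusted p = 0.594), where 0.0901% of all genes were called in either direction and 4.59% were higher at that unadjusted p. At 4 a.m. the median was -0.16 with 4 positive values, 0 members at an unadjusted p under 0.05 (0.901% of all genes higher and 1.74% lower), and 0% of all genes called. DESeq2 called 0 members at each of these times.

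**Figure D3:**
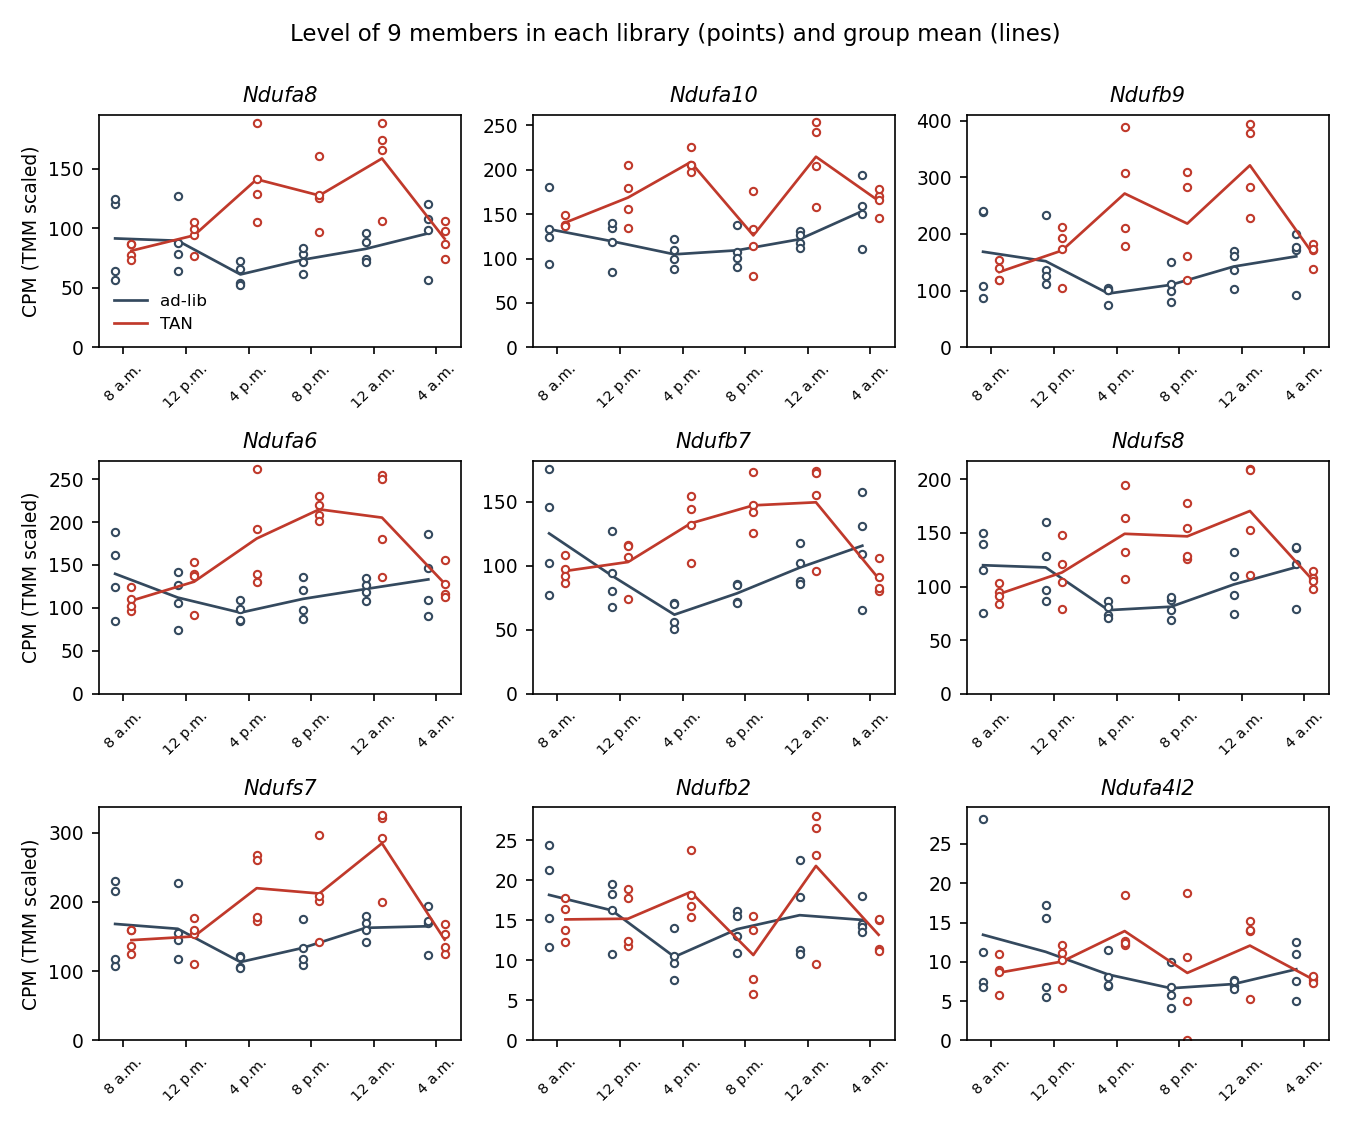
Level in CPM (TMM scaled, vertical axes from 0) of 9 members in each library (open circles) by time of day and diet, with lines through the means of 4 libraries. Ndufa6, Ndufb7 and Ndufs8 have separated diets at 4 p.m. as well as 8 p.m., whereas those of Ndufa10 and Ndufb2 overlap at 8 p.m., and Ndufa4l2 is at most at 28.2 CPM.

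Averaged over the 6 times, TAN libraries were higher in all 37 members, with a median log2 fold change of 0.34 against -0.08 for all genes. The mean effect was called for 21 of 37 members, all higher, as for 2.68% of all genes (5.42% in either direction). Ndufa10 led with 0.45 (SE 0.08, adjusted p = 0.000595), followed by Ndufa8 with 0.46 (SE 0.10, adjusted p = 0.00361), Ndufb9 with 0.59 (SE 0.13, adjusted p = 0.00439), Ndufs4 with 0.47 (SE 0.11, adjusted p = 0.00968) and Ndufa6 with 0.41 (SE 0.10, adjusted p = 0.0109). Each of these values lies below the same gene's value at 4 p.m. Leaving out 1 replicate number of 1 diet at all times left 10, 11 and 4 calls without TAN replicate 2, 3 or 4, and 6 and 4 without ad-lib replicate 2 or 3.

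The TAN effect varied between the times in 28 of 37 members (F test that the 6 differences are equal, in the same edgeR model), against 8.98% of all genes. Ndufb7 had the lowest adjusted p (0.0114), then Ndufs8 (0.0148) and Ndufa13 (0.0160). In Ndufb7 the log2 fold change was 1.11 at 4 p.m. and then 0.91 at 8 p.m., but -0.38 at 8 a.m. and -0.36 at 4 a.m. Ndufs8 had 0.94 and 0.85 in the afternoon and evening and -0.36 at 8 a.m., and Ndufa13 had 1.17 and 0.82 against -0.50. The 9 members not called include Ndufa10 (adjusted p = 0.0568), Ndufs1 (adjusted p = 0.172), Ndufb2 (adjusted p = 0.139) and Ndufa4l2 (adjusted p = 0.641). The count was 13, 9, 0 and 18 without TAN replicate 1, 2, 3 or 4, and 0 and 2 without ad-lib replicate 3 or 4. It was 1 with the lymphocyte markers as a covariate.

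Within the TAN regimen, expression changed over the day in 19 of 37 members, where 23% of all genes were called. Ndufs7 was the clearest, with 159.5, 159, 125 and 136 CPM at 8 a.m. rising to 200.1, 322, 326 and 292 CPM at 12 a.m. (adjusted p over the 6 times 0.00523). Every 12 a.m. library of Ndufs7 was above every 8 a.m. library. Ndufa6 (adjusted p = 0.00732) was lowest at 8 a.m. with 125, 109.9, 96.2 and 103 CPM and highest at 8 p.m. with the values given above. Ndufa8 (adjusted p = 0.00913) went from 86.4, 86.6, 77.8 and 73.4 CPM at 8 a.m. to its 12 a.m. values. Of the 37 members, 28 were lowest in TAN sWAT at 8 a.m. and 30 were highest at 12 a.m. The count was 9, 0, 0 and 8 without TAN replicate 1, 2, 3 or 4, and 2 with the lymphocyte markers as a covariate.

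In ad-lib sWAT 0 members changed over the day by edgeR at an adjusted p under 0.05, and 0.0551% of all genes did. At an unadjusted p under 0.05 there were 17 members, against 6.67% of all genes, and DESeq2 called 1. As a description, 27 members had their highest mean at 8 a.m. and 36 their lowest at 4 p.m. The members share the same 4 libraries at each time and are not separate evidence. At 8 a.m. the ad-lib subunit means were 7.27, 6.15, 6.39 and 7.31 log2 CPM, where lymphocyte markers averaged 4.68, 7.04, 7.46 and 1.61. At 4 p.m. these markers averaged 6.59 to 7.38 in ad-lib libraries. The part of cell mixture in this order was not tested. In Ndufa12 the mean was 62.9 ± 32.4 CPM (SD, n = 4) at 8 a.m. and 22.1 ± 4.34 CPM at 4 p.m. (adjusted p over the 6 times 0.565, edgeR). The time of the ad-lib low was the time with the most calls between the diets.

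A 24-h harmonic fitted to the group means described 21 members at an adjusted p under 0.05 in TAN sWAT (19.8% of all genes) and 0 in ad-lib sWAT (0.0801% of all genes), where 32 had an unadjusted p under 0.05 (11.4% of all genes). The median amplitudes over the 35 subunits were alike, 0.39 in TAN and 0.36 in ad-lib on the log2 scale. Over the same 35 subunits, called or not, fitted peaks lay at a median clock hour of 20.3 in TAN and 5.72 in ad-lib sWAT. No harmonic of a member was called in ad-lib sWAT, so that hour describes group means only. A difference in peak hour between the diets was not tested. The lowest amplitudes in TAN were those of Ndufb2 (0.0082) and Ndufa10 (0.062), and Ndufv3 had a fitted peak at hour 16.9. The count in TAN was 0 without TAN replicate 3 and 7 without TAN replicate 4. It was also lower with the lymphocyte markers or the TEC share as a covariate.

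The members moved together across libraries. The correlation of a subunit with the mean of the other subunits over 48 libraries had a median of 0.942, and the lowest values were those of Ndufb2 (0.661), Ndufa10 (0.716) and Ndufs1 (0.760). Among the 15164 other protein-coding genes compared, those most like the members' mean were Gpx4 (r = 0.974), Bola3 (0.969), Sod1 (0.969), Chchd2 (0.969) and Dgcr6 (0.959). Gpx4 reduces lipid peroxides, Bola3 takes part in iron-sulfur cluster delivery in mitochondria, and Sod1 removes superoxide. At 4 p.m. their log2 fold changes were 1.42, 1.45, 0.99, 1.03 and 1.18, given as a description since the choice used these libraries.

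The rest of the respiratory chain was read beside the members, all against the 6.54% of genes called higher at 4 p.m. The 34 nuclear subunits of complexes III to V had a median log2 fold change of 1.13 with 31 called higher, and the 4 subunits of complex II had 1.11 with 4 called. Ndufab1, the acyl carrier protein that sits in complex I and that the name rule leaves out, was at 192 ± 33.3 CPM in TAN and 88.3 ± 15.7 CPM in ad-lib libraries (SD, n = 4, 1.12, adjusted p = 0.0242). Over the 48 libraries the mean of complexes III to V correlated with that of the complex I subunits at r = 0.994. Complex I did not stand out from its neighbours in the chain by these values, and the difference between the lists was not tested.

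For the mitochondrially encoded subunits there was 1 call between the diets over all 6 times. None of the 7 mt-Nd genes was called at 4 p.m. (0 at an unadjusted p under 0.05, 0 of 7 varying by time), and their median log2 fold change was 0.34. mt-Nd1 was at 6148 ± 2741 CPM in TAN and 4475 ± 912 CPM in ad-lib libraries (SD, n = 4, 0.46, SE 0.39, adjusted p = 0.434). At 8 p.m. mt-Nd5 was called lower (-1.75, SE 0.58, adjusted p = 0.0429), while 10 members were higher. The ratio of mt-Nd to nuclear subunit CPM at 8 p.m. was 1.65 to 2.66 in TAN and 4.34 to 5.20 in ad-lib libraries, without overlap. At 12 a.m. all 7 mt-Nd genes had positive values, with a median of 0.75 beside the members' 0.80, and 0 were called by edgeR (2 at an unadjusted p under 0.05).

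Of the 18 complex I assembly factors tested, 7 were called higher at 4 p.m. and 0 lower (median 0.66). They include Ndufaf3 (1.03, SE 0.25, adjusted p = 0.0111), which acts early in the assembly of the arm that binds quinone, and Timmdc1 (0.87, SE 0.27, adjusted p = 0.0290), an inner-membrane factor. Ndufaf2, which gives way to Ndufa12, was at 0.70 (SE 0.31, adjusted p = 0.105). For the mitochondrial ribosomal proteins, 54 of 77 were called higher at 4 p.m. (median 0.74). Of the cytosolic ribosomal proteins 1 of 78 was called at 4 p.m. (median -0.24), but 50 of 78 at 8 p.m. (median 1.27). Their summed level at 8 p.m. was 171514, 178827, 70357 and 37007 CPM in TAN and 36818 to 52091 CPM in ad-lib libraries, so that TAN replicates 1 and 2 were far above the rest and replicate 4 lay within the ad-lib range. At 8 p.m. 14 of the 34 subunits of complexes III to V were called (median 0.72). Both ribosomal lists were added after values had been seen.

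**Figure D4:**
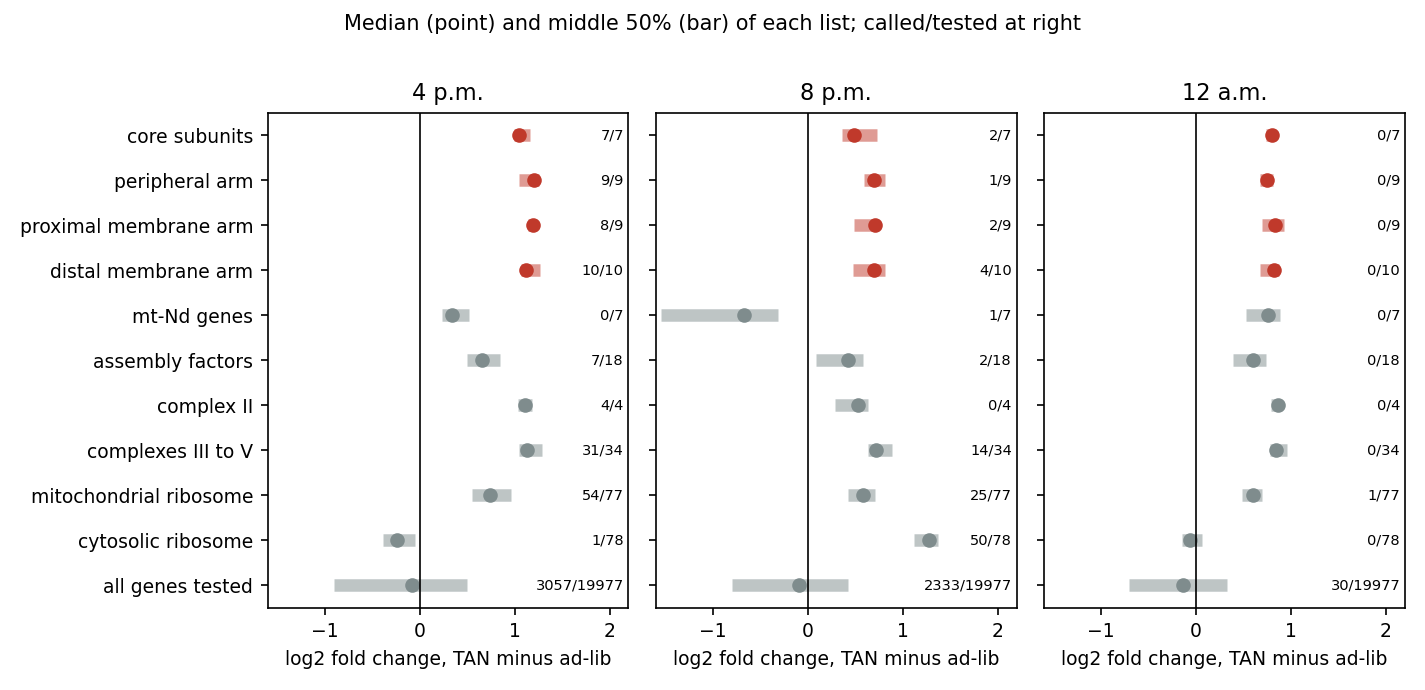
Median (points) and middle 50% (bars) of the log2 fold change, TAN minus ad-lib (horizontal axes), of the 4 groups of members (red) and of other gene lists (grey) at 3 times, with called and tested genes at the right of each row. The 4 red medians lie between 1.05 and 1.21 at 4 p.m., next to complexes II to V and above the mt-Nd genes at 0.34, and the cytosolic ribosome leads at 8 p.m. with 1.27.

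The regulators of respiratory genes had no common direction. Of 13 at 4 p.m., 1 was called higher and 2 lower (median -0.04), where 15.3% of all genes were called in either direction. The 13 include Tfam, Tfb2m and Polrmt, which serve transcription of the mitochondrial genome. Esrra, an orphan nuclear receptor that activates oxidative genes, was the one called higher, at 53.7 ± 23.1 CPM in TAN and 25.8 ± 5.16 CPM in ad-lib libraries (SD, n = 4, 1.06, adjusted p = 0.0293). Its mean effect over the day was 0.55 (SE 0.13, adjusted p = 0.0133). The coactivator Ppargc1a was at 15.96 ± 7.54 against 15.6 ± 3.17 CPM (0.03, adjusted p = 0.977) at 4 p.m. and was called lower at 8 p.m. (-1.56, SE 0.49, adjusted p = 0.0341). Ppargc1b (-0.46, adjusted p = 0.814), Nrf1 (-0.42, adjusted p = 0.308) and Gabpa (-0.07, adjusted p = 0.783) were not called at 4 p.m. Those called lower were Pprc1 (-1.84, adjusted p = 0.0360) and Gabpb1 (-0.79, adjusted p = 0.0368). Ucp1, the uncoupling protein of thermogenic adipocytes, was at 1.10 ± 1.43 CPM in TAN and 0.164 ± 0.201 CPM in ad-lib libraries (2.68, SE 1.70, adjusted p = 0.274) and was at 0 in 22 of the 48 libraries. Of 7 thermogenic markers tested, 3 (Cidea, Elovl3 and Cox7a1) were called higher at 4 p.m. and 0 lower, and 6 had a positive log2 fold change (range -0.58 to 6.38). Elovl3 was near the floor, with medians of 1.17 CPM in TAN and 0 in ad-lib libraries, and at 0 in 14 of the 48 libraries. Dio2 had a median of 0.108 CPM in TAN and 1.14 CPM in ad-lib libraries at 4 p.m.

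Several measures of the libraries moved with the subunits. Over the 48 libraries the subunit mean correlated with the mean of the lymphocyte markers at r = -0.617 (-0.698 within TAN and -0.553 within ad-lib libraries), with the adipocyte markers at r = 0.571, and, for the percent of counts falling on TEC genes, at r = -0.778. That share was 0.0327% to 0.0847% in TAN and 0.0882% to 0.110% in ad-lib libraries at 4 p.m., and 0.0294% to 0.0394% against 0.0807% to 0.104% at 8 p.m. With it as a covariate 1 member was called at 4 p.m. (median 0.66) and 0 at 8 p.m. (median -0.17). Among libraries with lymphocyte markers below 2 log2 CPM, subunit means were 6.57 to 7.31 in 4 ad-lib and 6.84 to 7.69 in 6 TAN libraries. Among the rest they were 5.81 to 7.27 in 20 ad-lib and 6.22 to 7.61 in 18 TAN libraries. The cut at 2 was set after the values were seen, the times of day are mixed in these sets, and the ranges overlap in both.

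**Figure D5:**
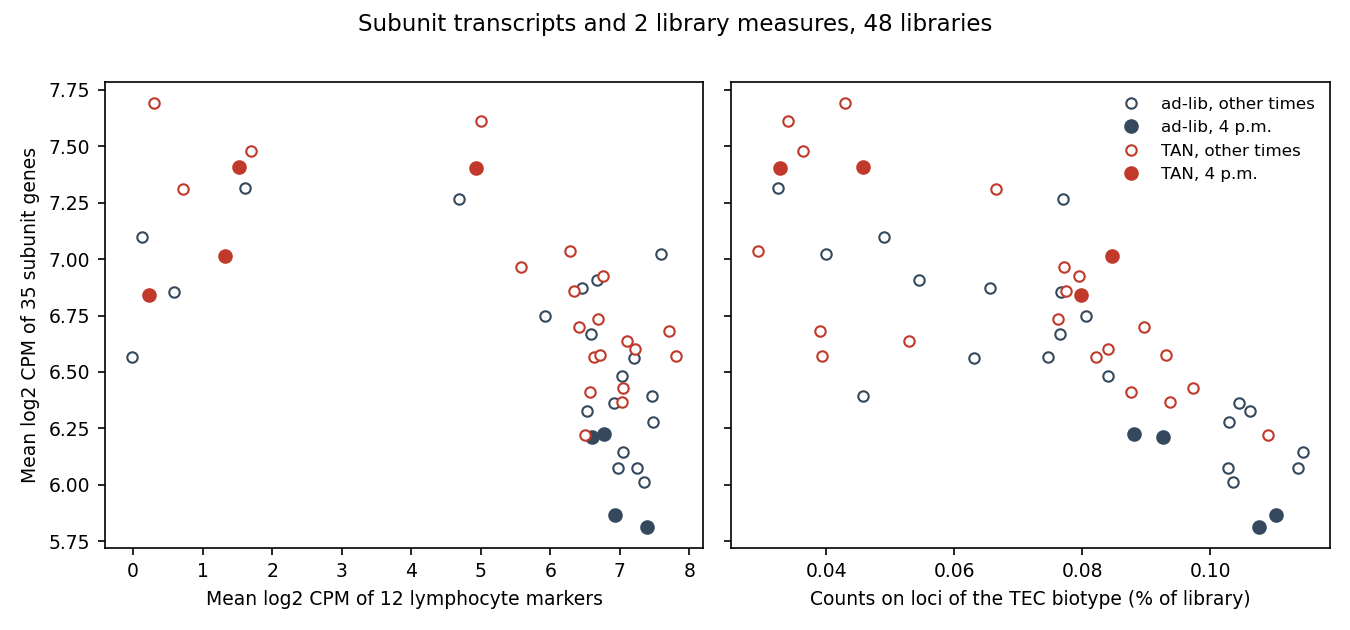
Mean log2 CPM of the 35 subunit genes (vertical axis) against the mean log2 CPM of 12 lymphocyte markers (left) and the percent of counts from TEC genes (right) in 48 libraries, with the 4 p.m. libraries filled. The subunit mean is lower where either measure is higher (r = -0.617 and r = -0.778), and at 4 p.m. the TAN libraries lie at 0.23 to 4.93 on the marker axis and the ad-lib libraries at 6.59 to 7.38.

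Scaling and gene length moved with the subunits too. The TMM factor, which sets the scale of each library, correlated with the subunit mean at r = -0.951. Counts are divided by this factor to give log2 CPM, so a negative correlation is partly built in. With library totals and no such factor, 32 members were called at 4 p.m., the members' median was 0.81 and that of all genes -0.42, and with TMM they were 1.15 and -0.09. Of the members, 27 fall among the 3053 shortest protein-coding genes tested (up to 2303 bases), those of the first of 5 equal bins by length. This bin had a median log2 fold change of 0.26 at 4 p.m. (0.39 at 8 p.m.), and the bin of the longest genes had -0.31 and -0.51. In the shortest bin, 15.2% of genes were called higher at 4 p.m. The part of cell mixture, library composition and gene length in the members' values was not tested.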

How the data were processed

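RNA-seq of inguinal white adipose tissue was analysed from the table of raw counts per gene that the authors deposited, 1 column per library, with gene names, biotypes and lengths. The submitters' processing notes name TopHat 1.3.3, DESeq2 1.20.0, limma, edgeR and the builds mm9, mm10 and GRCm38 without roles, and the tool that counted the reads and its use of strand are not given in the sources used here. Libraries were made from polyadenylated RNA and read as pairs. A deposited table of FPKM group means was not used.

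Of 54532 genes, 19977 passed filterByExpr (minimum count 10). Counts were scaled by TMM and fitted in edgeR 4.0.16 (R 4.3.3) by the robust quasi-likelihood test, with 1 coefficient for each of the 12 groups of diet and time. Calls are at a Benjamini-Hochberg adjusted p under 0.05 over all genes tested. CPM are TMM scaled, log2 CPM use a prior count of 2, and RPKM divide by the deposited gene length. Tests of time used F tests over the 6 times, or a 24-h harmonic. The labels state no pairing by number, and the libraries were treated as unpaired. Deviations from the group means correlated over 0.1 in 10 of the 24 same-numbered pairs (median r -0.0127, range -0.586 to 0.844). Pairs with different numbers were not compared, so these values cannot settle whether the numbers pair the libraries. No libraries were identical (0 pairs). Total counts (median 20882118) limit the precision of low genes such as Ndufa4l2, and p-values measure the spread between these libraries.

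The members and gene lists were chosen with earlier results of these data known. Given in full by rule were the up to 3 called members with the lowest adjusted p at each time, the 5 for the mean effect, the 3 for variation by time and for time within each diet, Ndufa4, Ndufa4l2, the members with the highest and lowest RPKM, 6 regulators and thermogenic genes, and the 5 protein-coding genes outside the respiratory lists most like the members' mean. Other genes are named as examples of their role and were chosen after their values were seen. Alternatives were DESeq2 1.42.0, limma 3.58.1 voom, other scaling and filters, a fit per time, a replicate block, covariates for lymphocyte, adipocyte and muscle markers, each library left out, and, added after seeing the data, no scaling factor and a covariate for the TEC share. The scripts were tested on simulated data, with an absolute log2 fold change of 1 given to 200 genes in TAN libraries at 4 p.m. Of these edgeR recovered 26%, with 1 false call at that time, and DESeq2 37.5%, with 22 false calls. A count of 0 calls therefore does not show that a difference is absent. Of the members, 1 is counted in the totals but not reported here by itself.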

Additional observations from a re-analysis of the deposited data

Results flagged for a closer look

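Among 156 groups of 4 libraries examined for the members given in full, 6 held a library far from the other 3 by Dixon's test. Chance flags about 1 in 20 groups, so that 6 is no more than chance gives. These were Ndufa10 in TAN sWAT at 8 a.m. (replicate 2, 149 CPM), Ndufb9 in ad-lib sWAT at 4 p.m. (replicate 3, 74.0 CPM), Ndufa4 in ad-lib sWAT at 4 a.m. (replicate 1, 199 CPM) and in TAN sWAT at 4 a.m. (replicate 2, 252 CPM), and Ndufa4l2 in TAN sWAT at 4 p.m. (replicate 2, 18.5 CPM) and at 12 a.m. (replicate 1, 5.20 CPM).

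The TAN effect differed between the times of day in 28 members by the F test in edgeR with Benjamini-Hochberg adjustment. Among the members given in full the adjusted p was 0.0114 for Ndufb7, 0.0148 for Ndufs8, 0.0160 for Ndufa13, 0.0169 for Ndufa8, 0.0190 for Ndufa4, 0.0210 for Ndufb9, 0.0216 for Ndufs7, 0.0221 for Ndufa6 and 0.0246 for Ndufs4.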

How the results depend on the processing

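With each library left out in turn, members called ranged from 22 to 35 at 4 p.m. (members' median log2 fold change 1.04 to 1.28), 2 to 11 at 8 p.m. and 0 to 25 at 12 a.m., and stayed at 0 at 8 a.m., 12 p.m. and 4 a.m. With 1 replicate number of 1 diet left out at all times they ranged from 4 to 21 for the mean effect, 0 to 31 for variation by time, 0 to 25 for time in TAN, 0 to 0 for time in ad-lib, 0 to 26 for the harmonic in TAN and 0 to 1 in ad-lib sWAT. The lymphocyte covariate gave 0 calls at 4 p.m., 1 at 12 p.m., 1 for variation by time, 2 for time in TAN, and 9 and 1 for the harmonic in TAN and ad-lib. The adipocyte covariate gave 15 (4 p.m.), 20 (8 p.m.), 3 (12 a.m.) and 1 for the ad-lib harmonic, and the muscle covariate 1 at 12 a.m. The TEC covariate gave 1 (4 p.m.), 0 (8 p.m.), 4 for the mean effect, 0 for variation by time, 2 for time in TAN and 0 for its harmonic, and at 8 p.m. it turned the log2 fold change of Ndufa13 to -0.058 and of Ndufa4 to -0.012. No scaling factor gave 6 at 8 p.m., 12 for variation by time, 7 for time in TAN and 11 for its harmonic. No filter gave 5 at 8 p.m. and 13 for the mean effect. A separate fit of 8 p.m. and a fold threshold of log2 1 each gave 0 there. At 12 a.m. RLE factors gave 2, a minimum of 10 counts in every library 2 (and 1 for the ad-lib harmonic) and DESeq2 15, and DESeq2 gave 30 for time in TAN and 1 in ad-lib. The cause of these changes was not tested. Of the values of single members given in full, 451 kept their direction and side of the threshold under an alternative, 105 fell below the threshold and 2 turned. Depth limits Ndufa4l2 and Ndufb2 most.

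The labels state no pairing of same-numbered libraries. With a replicate block 34 members were called at 4 p.m., 7 at 8 p.m., 16 for the mean effect, 23 for variation by time, 17 for time in TAN and 20 for its harmonic, and 0 at 8 a.m., 12 p.m., 12 a.m. and 4 a.m. and in ad-lib sWAT.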
